A study of Rattus norvegicus with 4 samples.

Results

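The rat major histocompatibility complex (MHC), called RT1, lies near the start of chromosome 20, and its chromatin contacts in primary Schwann cells are described here. The region was taken as the 10 kb bins of chr20:1000001-6000000 in the rn6 build. It holds 500 of the 278214 bins of the genome. Bins were kept for structure where their cis contacts, meaning contacts with other bins of the same chromosome, reached 0.25 of the median bin, and 369 of the 500 did. The neighbouring stretch chr20:6000001-21000000, with 1500 bins of which 1359 were kept, served for comparison.

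Hi-C, which counts how often pairs of places in the genome lay close enough to be joined, was performed on Schwann cells, the glia of peripheral nerve, cultured from rat sciatic nerve. Cells of one group were infected with Lenti-AS, a lentivirus that overexpresses the antisense RNA of the Egr2 promoter, and cells of the other with Lenti-GFP, which the labels call a backbone control that carries GFP. By the methods, the antisense RNA was cloned into pLVX-DsRed-Express2-N1 and the control plasmid was pLVX-AcGFP1-N1, so the vectors of the groups were not the same apart from the insert. Both infections lasted 48 hours at 2 viral units per cell, all cells grew with forskolin and heregulin, and each group had 2 libraries, numbered 1 and 2 in the titles. Nothing in the labels says whether the 2 libraries of a group came from separate cultures. The paper's methods speak of independent samples and its results of duplicates, without saying how these were made. Every p-value below thus measures the spread between these libraries, which may be technical. The labels give no strain, age or promoter of the transgene for these samples, and contact counts hold no marker expression by which the cell type could be checked. The libraries held 94956821 and 110770015 contacts for Lenti-GFP and 74811640 and 70488877 for Lenti-AS, of which 12.6% to 13% joined different chromosomes. The 2 Lenti-AS libraries were thus both the shallower ones.

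The MHC encodes the proteins that show peptides to T cells. Class I molecules are made by nearly all nucleated cells and are loaded in the endoplasmic reticulum with peptides cut by the proteasome, while class II molecules are loaded in endosomes of antigen presenting cells. Between the gene groups of both classes lies the class III stretch, a gene-dense block with complement and cytokine genes. The rat differs from human in that its classical class I genes, RT1-A, sit beyond class II, on the far side from the large cluster of nonclassical class I genes. Class I families grew by repeated duplication, and genes of such families are alike in sequence.

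In the GRCr8 assembly, the gene table places 37 of 48 listed class I genes, all 12 listed class II genes, all 5 listed antigen processing genes, 56 of 60 class III genes and 56 of 59 framework and flanking genes on chromosome 20. In that order, RT1-M, RT1-T24, RT1-N and RT1-S genes come first, among framework genes such as Gabbr1, Mog and the Trim genes. Further framework genes, among them Gnl1, Ddr1 and Pou5f1, lead to the RT1-CE genes, and then comes class III, from Ddx39b past Tnf, the heat shock gene Hspa1b, the methyltransferase gene Ehmt2 and the complement genes C2, Cfb and C4a to C4b. Class II follows with RT1-Da, RT1-Db1, RT1-Ba and RT1-Bb, mixed with Tap1 and Tap2, the peptide transporters, and with Psmb8 and Psmb9, subunits of the immunoproteasome. RT1-A1, RT1-A2 and RT1-A3 come after Ring1, and Tapbp, which helps load class I molecules, stands with Daxx and Bak1 near the end. The bins carry rn6 positions and the table GRCr8 positions, so no gene is assigned to a bin below, and no sequence of the bins is shown.

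Much of the MHC region held few contacts. Of its 500 bins, 131 (26.2%) had fewer cis contacts than 0.25 of the median bin, against 11.4% of all bins on the numbered chromosomes and X and 9.4% of chr20:6000001-21000000. The 3 neighbouring stretches of 5 Mb held 6.8%, 15.6% and 5.8%. The gaps were in the same places in each library, with 132 and 131 such bins for Lenti-GFP and 132 and 134 for Lenti-AS, and all 131 fell under the threshold in all 4. The groups therefore overlapped. No cis contact at all was listed in any library for 49 of these bins. Of the kept bins, the one nearest to the threshold was chr20:2710001-2720000 with 487 summed contacts, 0.254 of the median bin of 1915, and of those left out it was chr20:3830001-3840000 with 451, or 0.236. A threshold of 0.1 left 94 bins (18.8%, against 9.07% of the genome) and one of 0.5 left 193 (38.6%, against 16.8%).

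Most of these bins lay side by side. Runs of at least 3 neighbours numbered 14 and took up 101 bins. The longest, chr20:2720001-2970000, spanned 250 kb, and the cis contacts of its 25 bins came to 455 and 557 (Lenti-GFP) and to 359 and 351 (Lenti-AS). A single median bin of the genome held 523 and 609 in the first pair and 400 and 377 in the second, so that 25 bins together held less than 1 such bin in all 4 libraries. Runs of 150 kb were found at chr20:1350001-1500000, where 14 of 15 bins had no cis contact, and at chr20:5180001-5330000, where 8 of 15 had none. The run chr20:3900001-3970000 spanned 70 kb, and the runs at chr20:1110001-1170000 and chr20:2650001-2710000 spanned 60 kb each. The remaining 8 were of 30 to 50 kb: chr20:1000001-1050000, chr20:1070001-1100000, chr20:1260001-1290000, chr20:2610001-2640000, chr20:3030001-3070000, chr20:3200001-3230000, chr20:4720001-4750000 and chr20:5760001-5790000. Before position 3100001 there were 79 such bins among 210, and after it 52 among 290. Whether reads could be placed in these bins was not tested.

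**Figure D1:**
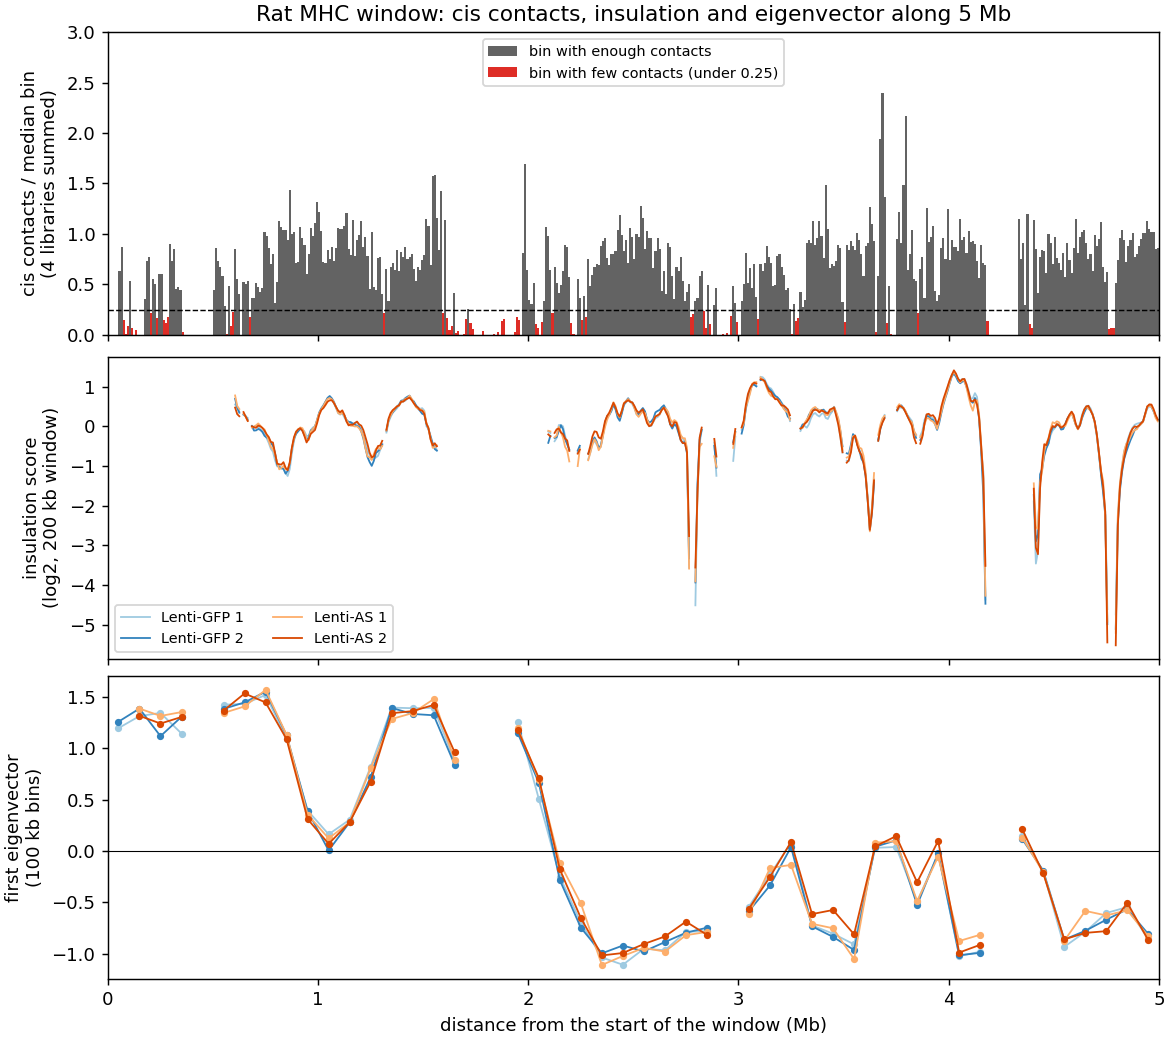
Cis contacts per 10 kb bin as a multiple of the median bin (top), the insulation score of the 4 libraries (middle) and the first eigenvector of 100 kb bins in the 4 libraries (bottom), against distance from the start of the MHC region in Mb. Red bars are the 131 bins with few contacts, lines break where a bin has no value, and the lines of the 4 libraries lie on each other over most of the region.

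Taken as a whole, the MHC region had a higher trans share than its neighbours. The trans share, meaning the part of a region's contact ends that met another chromosome, was 23.7% ± 0.177 (SD, n = 4) in its kept bins and 19.3% ± 0.410 in chr20:6000001-21000000. A contact within a single bin was counted as 1 end, not 2, which raises these shares. The library shares of 12.6% to 13% counted each contact once and are not on this scale. The difference was 4.38 percentage points ± 0.336 and ranged from 4.07 to 4.78 over the 4 libraries, so the 2 sets of values did not overlap (exact sign-flip permutation test over libraries, two-sided, p = 0.13, the smallest that 4 libraries allow). It held against each neighbouring stretch of 5 Mb, with 5.08, 4.62 and 3.46 percentage points. It was uneven along the region. In the 20 bins of 100 kb that were positive by the compartment eigenvector, described with the compartments, the trans share was 27.6% ± 0.576 (n = 4), and in the 22 negative ones it was 20.7% ± 0.307. In both Lenti-AS libraries the negative bins (20.5% and 20.5%) lay below chr20:16000001-21000000 (20.8% and 20.7%). The shares by sign took in 10 kb bins with few contacts, which the shares of the region and of the neighbouring stretches left out. By group, the trans share of the region was 23.5% and 23.8% for Lenti-GFP and 23.8% and 23.8% for Lenti-AS, the 95% Wilson interval of the first being 23.3% to 23.6% (counting error only). The other ends were spread over all the other numbered chromosomes and X. Chromosome 12 took 3.90% ± 0.207 of the trans contacts of the MHC region and 3.30% ± 0.0556 of those of the neighbouring stretch, the largest surplus of the mean over libraries at 1.18-fold. Chromosome 17 took 4.16% ± 0.0949 and 4.93% ± 0.0132, the largest deficit of the mean at 0.844-fold. The direction of both held in all 4 libraries, as it did for every other chromosome but chromosome 8. Within the region, chromosome 12 took 3.26% of the trans contacts of positive bins and 4.54% of those of negative bins.

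Contacts inside the MHC region were fewer than the genome's mean at the same distance. Over pairs of kept 100 kb bins 0.1 to 0.5 Mb apart, observed over expected was 0.745 ± 0.0225 (n = 4) in the region and 0.898 ± 0.0330 in chr20:6000001-21000000 (difference -0.153 ± 0.0110, exact sign-flip permutation test, p = 0.13, the smallest possible). The expected count is the mean of all such pairs of the genome at that distance. Between 0.6 and 1.9 Mb apart the values were 0.582 ± 0.0290 and 0.766 ± 0.0357, but chr20:11000001-16000000 was lower still at 0.475. The direction depended on how the expected count was set. Where the expected count was also scaled by the cis contacts of both bins, an alternative chosen after seeing the data, the region stood above the neighbouring stretch, with 1.53 against 1.39 at 0.1 to 0.5 Mb and 1.30 against 1.20 at 0.6 to 1.9 Mb.

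**Figure D2:**
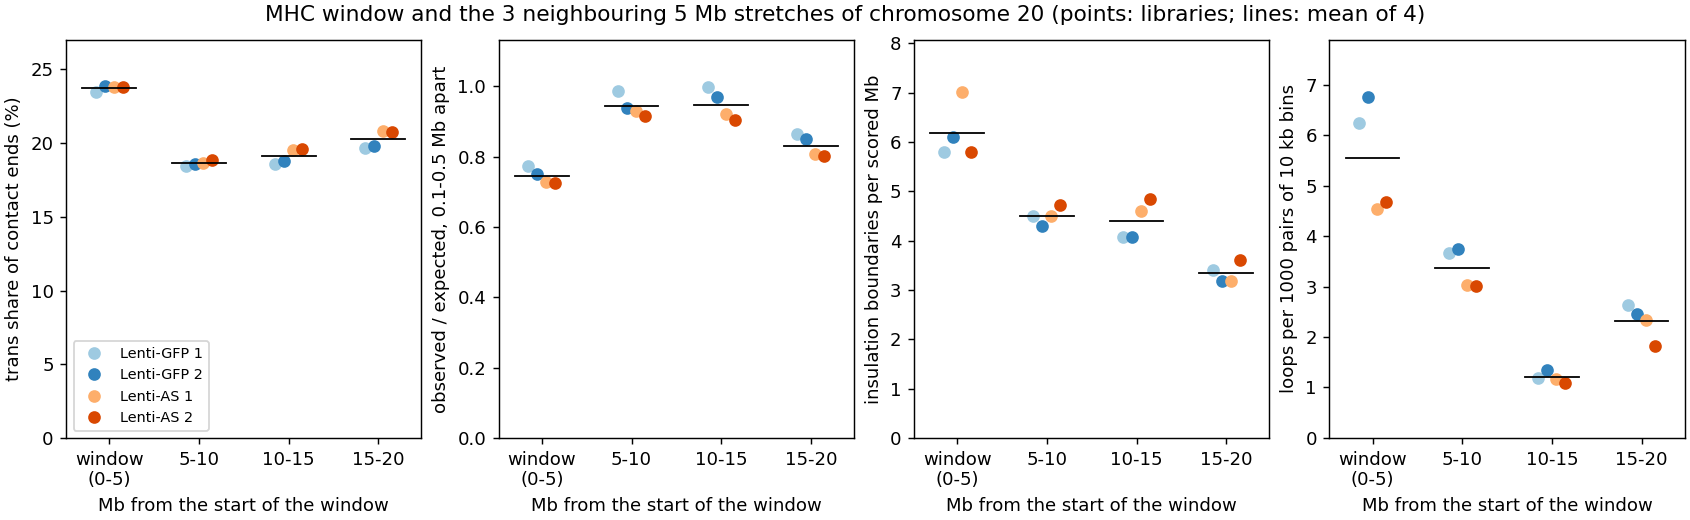
Trans share of contact ends in percent, observed over expected contacts at 0.1 to 0.5 Mb, insulation boundaries per scored Mb and loops per 1000 pairs of 10 kb bins, for the MHC region and the 3 following stretches of 5 Mb. Points are the 4 libraries and lines their mean, and the region has the highest mean trans share, boundary density and loop density and the lowest observed over expected.

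Near neighbours that hardly met were frequent in the MHC region. Of its 108 pairs of kept 100 kb bins at most 0.3 Mb from each other, 15 (13.9%) had at most 0.1 of the expected contacts in all 4 libraries, against 1.59% of such pairs in the genome and 3.89% in chr20:6000001-21000000. The limits of 0.1 and 0.3 Mb were chosen after seeing the maps. With the expected count scaled by the contacts of both bins, 6 pairs (5.56%) were under the limit, against 1.10% and 2.92%. The adjacent bins chr20:3700001-3800000 and chr20:3800001-3900000 shared 34 and 30 contacts with Lenti-GFP and 26 and 33 with Lenti-AS. The mean of adjacent bins in the genome was 480 and 555 in the first pair of libraries and 372 and 353 in the second, so all 4 libraries were more than 10-fold below it. That mean was not scaled by the bins' own contacts. These bins held only 0.461 and 0.326 of the cis contacts of the median 100 kb bin. With the scaling this pair was not among the 6. The bins chr20:5300001-5400000 and chr20:5600001-5700000 shared 4 contacts over the 4 libraries where 448 were the mean, and chr20:2900001-3000000 shared 1 with chr20:3200001-3300000. Whether these pairs are as near in the cells' genome as in the reference build was not tested.

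Some bins met a distant bin more often than the kept bins beside them. The bin chr20:5300001-5400000 had its strongest partner not beside it but at chr20:4600001-4700000, 0.7 Mb away. The pair shared 397 and 489 contacts with Lenti-GFP and 295 and 271 with Lenti-AS, 1452 in all and 9.54 times the expected count, while its right neighbour gave 519 and its left neighbour lay in a gap. For chr20:3800001-3900000 the strongest partner was chr20:5400001-5500000, 1.6 Mb away, with 120, 148, 75 and 76 contacts in the libraries in the same order, 8.97 times the expected count. The sum was 419, while its left neighbour gave 123 and its right neighbour was not kept. Both sums were below the genome's mean for adjacent bins (1759). In all, 5 of the 43 kept 100 kb bins of the region (11.6%) had a strongest partner that was no neighbour in every library, against 3.58% of the genome and 2.78% of chr20:6000001-21000000. For 4 of these 5, a neighbour on one side had too few contacts to be kept.

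Pairs at least 0.5 Mb apart with at least 5 times the expected count in all 4 libraries, limits again chosen after seeing the maps, were no commoner than elsewhere. There were 3 among 761 pairs inside the MHC region (0.394%), against 1.03% in the genome. A further 14 of 1388 pairs (1.01%) joined the region to other bins of chromosome 20, and the highest values of observed over expected were among these. The bin chr20:100001-200000 met chr20:4600001-4700000, 4.5 Mb away, with 976 contacts in all and 86.8 times the expected count, between the genome's mean for bins 0.1 Mb apart (1759) and 0.2 Mb apart (705). It met chr20:4700001-4800000 and chr20:4900001-5000000 at 63.2 and 58.9 times. At the other end, chr20:5800001-5900000 met chr20:8000001-8100000, 2.2 Mb away, with 881 contacts, 29.9 times the expected count. These pairs stood out in both groups. Whether the order of sequence in the reference build had a part in them was not tested.

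**Figure D3:**
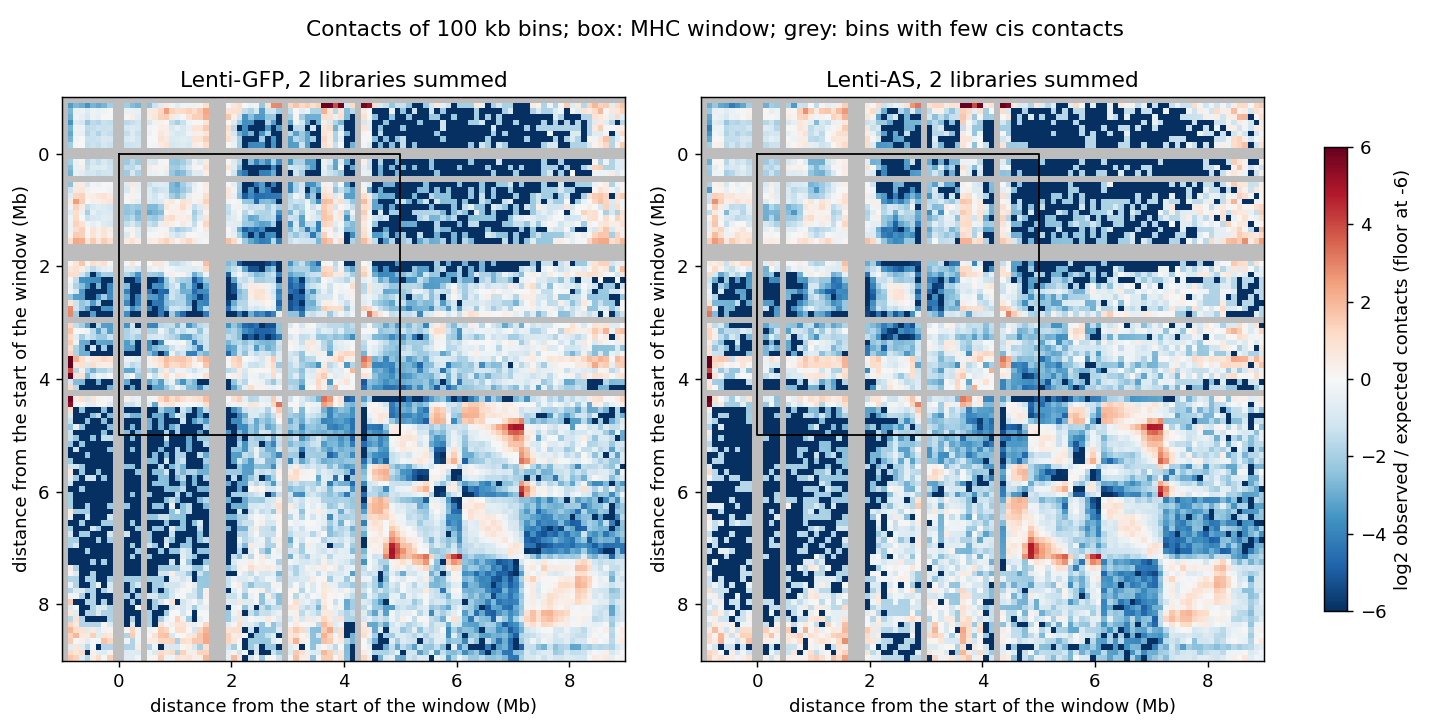
Observed over expected contacts of 100 kb bins (log2 colour scale, floor at -6) for Lenti-GFP (left) and Lenti-AS (right), each the sum of 2 libraries, with both axes as distance in Mb from the start of the MHC region, which is boxed. Red spots away from the diagonal and blue spots along it fall in the same places in both maps.

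At 10 kb, loops were called as pairs of bins 50 kb to 2 Mb apart with more contacts than a negative binomial regression on distance and on the contacts of both bins gave (q at most 0.05). For the MHC region there were 266 and 288 with Lenti-GFP and 193 and 199 with Lenti-AS, or 6.24, 6.76, 4.53 and 4.67 per 1000 pairs of kept bins. The densest neighbouring stretch, chr20:6000001-11000000, had 3.66, 3.75, 3.03 and 3.0, and the genome 2.03, 2.37, 1.59 and 1.52. The region's densities lay above those of the neighbour in all 4 libraries. Both Lenti-AS libraries, which were the shallower ones, had fewer loops than both Lenti-GFP libraries in the region, in this neighbour and in the genome, and depth and group cannot be told apart here. Of 462 loops called in any library, 97 (21%) were called in all 4.

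In the 4 libraries summed, 516 of 42613 pairs were loops (1.21%, against 0.59% of the genome and 0.807% of chr20:6000001-21000000). Of these, 85 joined chr20:4600001-4800000 with chr20:5300001-5500000, a block that holds the pair of 100 kb bins described above and is wider than it. The pair of 10 kb bins with the most contacts at 0.5 Mb or more lay there too, chr20:4640001-4650000 with chr20:5330001-5340000, with 30 and 39 contacts for Lenti-GFP and 35 and 36 for Lenti-AS. By observed over expected count the first 5 loops rested on few contacts. The first joined chr20:2710001-2720000 with chr20:4260001-4270000, 1.55 Mb apart, with 8, 11, 5 and 2 contacts in the libraries where 0.0482 were expected. The next joined the same left bin to chr20:4230001-4240000 (17 contacts) and to chr20:4200001-4210000 (16). This left bin was the one just above the threshold for few contacts. The other 2 joined chr20:3800001-3810000 (12 contacts) and chr20:3810001-3820000 (18) with chr20:5420001-5430000.

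Domain edges were read as local minima of the insulation score, the log2 of the contacts across a bin within 200 kb over the chromosome's mean, with a prominence of at least 0.2. A score could be given for 328 of the region's 500 bins (65.6%), against 88.6% in chr20:6000001-21000000, and none lay before chr20:1600001-1610000. Bins without a score were passed over, so scored bins on both sides of a gap were taken as neighbours when minima were sought. How much this added to the boundaries of the region was not tested. The MHC region had 20 boundaries in the summed libraries, 6.10 per scored Mb, and 16 of them were found in all 4 libraries within 1 bin. The neighbouring stretch had 51, or 3.84 per scored Mb. Library by library the region held 6.17 ± 0.577 (n = 4) and the neighbour 4.06 ± 0.222 per scored Mb, a difference of 2.11 ± 0.654 (exact sign-flip permutation test, p = 0.13, the smallest possible), and the values did not overlap. The difference was 1.67, 1.77 and 2.83 against the 3 stretches of 5 Mb. It depended on the window of the score. With 500 kb, chosen after seeing the data, the difference was 0.181 ± 0.321 (exact sign-flip permutation test, p = 0.375), and Lenti-GFP library 1 had fewer boundaries per scored Mb in the region (2.68) than in the neighbour (2.94). With 100 kb, also chosen then, it was 3.56.

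Of the 5 deepest edges, 4 stood near a bin with few contacts. The largest prominences were 5.75 at chr20:5790001-5800000, 4.87 at chr20:3790001-3800000, 4.66 at chr20:5170001-5180000, 3.81 at chr20:4620001-4630000 and 1.91 at chr20:1850001-1860000, where the median of the genome's 7646 boundaries was 0.935. At chr20:3790001-3800000 the score rested on 8, 11, 7 and 6 contacts across the bin in the 4 libraries, and at chr20:1850001-1860000 on 404, 491, 327 and 295. The first 4 lay within 3 bins of a bin with few contacts, and the fifth lay 18 bins from one. Over all, 11 of the 20 boundaries (55%) lay within 5 bins of one, against 12 of 51 (23.5%) in the neighbouring stretch. Of all bins with a score, 41.2% lay that near in the region and 22.3% in the neighbour. Deep edges were not confined to the MHC region. In the neighbouring stretch 9 had a prominence of at least 2 (0.677 per scored Mb), up to 8.06 at chr20:6810001-6820000, against 4 in the region (1.22 per scored Mb). Whether the order of sequence in the reference build had a part in the edges at chr20:3790001-3800000 and chr20:5790001-5800000 was not tested. The spread of the score was wider in the region (SD 0.855 ± 0.00946) than in chr20:6000001-21000000 (0.744 ± 0.0121), though not than in chr20:6000001-11000000 (0.959).

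**Figure D4:**
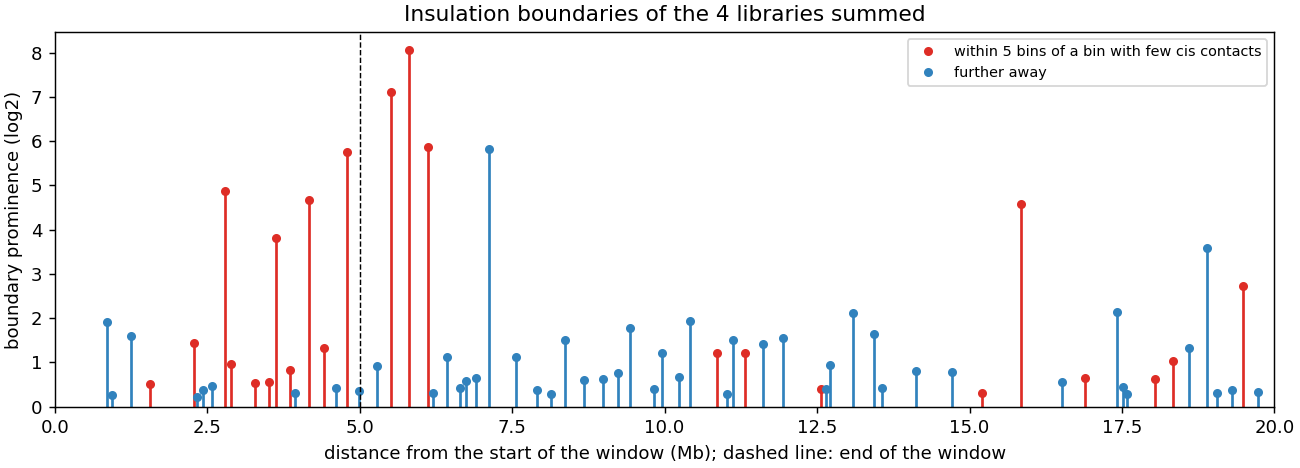
Prominence (log2) of each insulation boundary of the summed libraries against distance from the start of the MHC region in Mb, with red for boundaries within 5 bins of a bin with few cis contacts and blue for the others. The tallest bar of the region (5.75) lies just before its end, marked by the dashed line, and the tallest of all (8.06) lies beyond it.

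The compartment eigenvector splits a chromosome into 2 sets of bins that prefer contacts with their own set. Of the 50 bins of 100 kb in the MHC region, 44 had a value in all 4 libraries, and 42 of these had the same sign in all 4, 20 positive and 22 negative. The bins whose sign differed between libraries were chr20:4200001-4300000 and chr20:4900001-5000000. The matrices that the authors balanced per group gave the same sign for all 42. The sign was set so that positive bins have more trans contacts over the chromosome. That correlation was weak on chromosome 20 (r = 0.110 over its 100 kb bins), so the sign is not read here as active or inactive.

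The MHC region fell into an early positive and a later, mostly negative part. From chr20:1100001 to 3100000 all 17 bins measured in every library were positive, with a median of 1.25, down to 0.09 near the middle. From chr20:3100001 to 4200000 the 10 bins with values were negative, with a median of -0.78. Beyond that, short positive stretches broke the negative one, chr20:4600001-4800000 with 0.07 and chr20:5300001-5400000 with 0.15, the same bins that shared the distant contacts above. From chr20:5400001 to 6000000 all 6 bins were negative, with a median of -0.70. None of the region's bins went past the range of the rest of the chromosome, which ran from -1.20 to 1.85. The sign switched 7 times in each Lenti-GFP library and 5 and 9 times with Lenti-AS, or 1.4, 1.4, 1.0 and 1.8 times per Mb. In chr20:6000001-21000000 it switched 0.4, 0.533, 0.267 and 0.4 times per Mb, below the region in all 4 libraries. All of the region's switches but that at chr20:3100001 led into or out of bins with small positive values, 0.03 to 0.21 over the libraries. Among these were the bins whose sign differed between libraries.

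Relative to the expected count, distant bins of like sign met more than those of unlike sign. Over pairs of the region's bins at least 1 Mb apart, observed over expected was 1.22 ± 0.0540 (n = 4) where both bins were positive, 0.592 ± 0.0284 where both were negative and 0.329 ± 0.00935 where the signs differed. The eigenvector was computed from the same contacts, so this is a description. Relative to the expected count, some stretches apart from each other met more than those side by side, with limits set after seeing the eigenvector. The stretch chr20:1000001-3100000 reached 0.207 ± 0.00582 of the expected contacts with the adjoining chr20:3100001-4200000, but 0.750 ± 0.0335 with chr20:4200001-5400000 beyond it. Likewise chr20:5400001-6000000 reached 0.325 ± 0.0172 with its adjoining stretch chr20:4200001-5400000 and 0.733 ± 0.0503 with chr20:3100001-4200000, though its contacts themselves were more with the adjoining stretch (3497 over 66 pairs of bins, against 1505 over 60). The libraries' values did not overlap in either comparison. The stretch chr20:4200001-5400000 held 6 negative and 3 positive bins of constant sign. Relative to the expected count, it met the positive first stretch (0.750) more than the negative last stretch (0.325). Its pairs were not split by sign, so the part of its positive bins in this was not tested. Trans contacts, which the eigenvector did not use beyond its sign, differed too. Of the trans contacts of positive bins, 4.42% ± 0.0741 fell on the X chromosome and 6.63% ± 0.0641 on chromosome 13, against 2.63% ± 0.163 and 4.37% ± 0.0544 of those of negative bins. Negative bins sent 7.92% ± 0.172 to chromosome 10 and 4.54% ± 0.184 to chromosome 12, and positive bins 4.89% ± 0.149 and 3.26% ± 0.30. In none of these 4 chromosomes did the libraries' values overlap between the signs. These 4 were picked as those with the largest differences in either direction. On chromosomes 2, 4, 9 and 19 the direction was not the same in all 4 libraries.

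The groups of the study, Lenti-AS and Lenti-GFP, were then compared within the MHC region, to ask whether its folding differed when the antisense RNA was overexpressed. By most measures no difference passed. Both ends in the region was the case for 5.63% and 5.50% of the cis contacts of chromosome 20 with Lenti-GFP and for 5.46% and 5.36% with Lenti-AS. Both Lenti-AS values were below both Lenti-GFP values, by 0.157 percentage points between the means (5.57% ± 0.0985 and 5.41% ± 0.0741, n = 2 each, exact permutation test, two-sided, p = 0.333, the smallest that 2 against 2 libraries allow). The share of chr20:6000001-21000000 was lower in Lenti-AS too, with 23.2% and 22.7% against 22.1% and 21.8%. Boundaries of the region numbered 19 and 20 with Lenti-GFP and 23 and 19 with Lenti-AS, which overlapped (difference of the means 1.5, exact permutation test, p = 1). Without Lenti-AS library 1 the difference was -0.5.

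Cis contacts of single bins gave 19 calls. Among 425 bins tested for contacts with bins at least 2 bins away, 19 (4.47%) passed an adjusted p of 0.05 (edgeR quasi-likelihood test with Benjamini-Hochberg adjustment over all bins), against 5.98% of the genome and 6.47% of chr20:6000001-21000000. The share of the region was thus not above the background, nor was that at an unadjusted p under 0.05 (81 bins, 19.1%, against 20.8%). In Lenti-AS 17 were lower (4%) and 2 higher (0.471%), where 3.51% of the genome's bins were lower and 2.46% higher. The neighbouring stretch leaned the same way, with 90 of 1406 bins lower and 1 higher. All 19 were bins with enough contacts, and the lower ones had a median log2 difference of -0.30. The 3 largest falls were at chr20:5550001-5560000, chr20:2640001-2650000 and chr20:4950001-4960000, with log2 differences of -0.46, -0.46 and -0.45. Without Lenti-GFP library 2 the last of them was -0.29 and did not pass (adjusted p = 0.351, edgeR). The first of these had 223 and 253 contacts with Lenti-GFP and 126 and 115 with Lenti-AS. As CPM, contacts scaled to the same total of cis contacts in each library, these were 2.69, 2.62, 1.94 and 1.87, and its groups did not overlap (adjusted p = 0.00917, edgeR). The 2 bins that rose were chr20:5080001-5090000 with 0.32 (3.54 and 3.11 against 3.87 and 4.29 CPM) and chr20:5500001-5510000 with 0.30 (4.24 and 4.10 against 5.09 and 5.07). Without Lenti-GFP library 2 the first of these was 0.21 and did not pass (adjusted p = 0.254, edgeR). Each of these 5 bins missed the threshold in at least 2 of the 4 fits that left out 1 library. By edgeR, chr20:5550001-5560000 missed it without Lenti-GFP 1, Lenti-AS 1 or Lenti-AS 2 (adjusted p = 0.0686, 0.0651 and 0.172), chr20:2640001-2650000 without Lenti-GFP 1 or Lenti-AS 2 (0.0585 and 0.201), and chr20:5500001-5510000 without any one of the 4 (0.0546 to 0.150). The next by p among those higher, chr20:5030001-5040000 with 0.26, did not pass (adjusted p = 0.0711, edgeR). Of the places joined over 0.7 Mb, chr20:4600001-4700000 had 10 tested bins, with 8 differences below 0 and 2 that passed, both lower in Lenti-AS. In chr20:5300001-5400000, 3 of 7 differences were below 0 and 1 bin passed, lower in Lenti-AS. These 3 bins, named after their values were seen, were chr20:4680001-4690000, chr20:4690001-4700000 and chr20:5350001-5360000 (log2 differences -0.27, -0.20 and -0.41). The median log2 difference was -0.092 in the first place and 0.050 in the second. Over all tested bins it was -0.072 in the region and -0.083 in the neighbouring stretch. A link between the distant contact and these differences was not tested. The count of 19 depended on which library was left out, and so did the count over the genome. DESeq2 called none of the region's bins and 77 of the genome's.

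**Figure D5:**
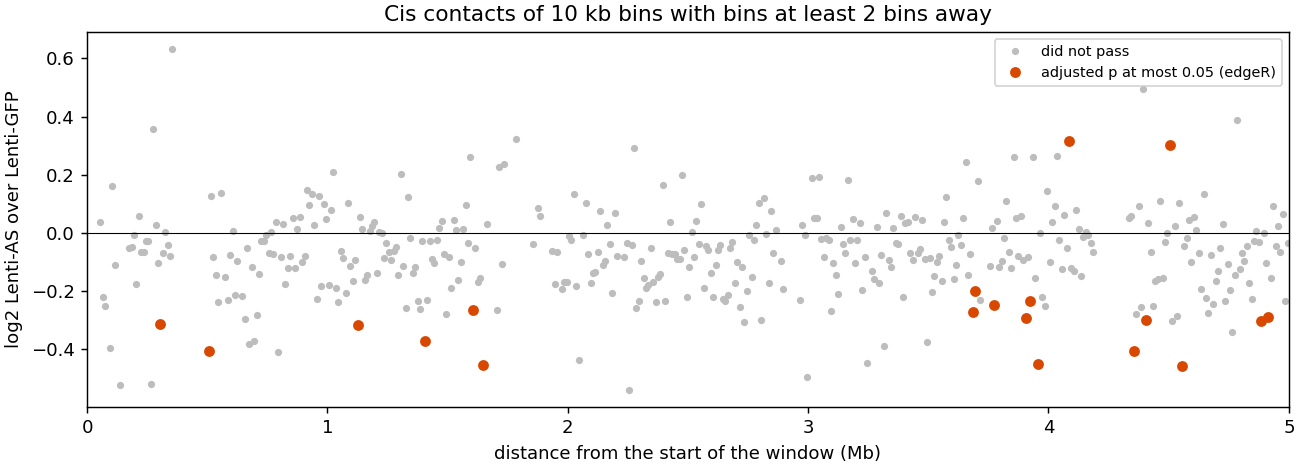
Log2 difference of cis contacts (Lenti-AS over Lenti-GFP) for each of the 425 tested 10 kb bins against distance from the start of the MHC region in Mb, with the 19 bins that passed in orange and the others in grey. Of the orange points, 17 lie below 0 and 2 above.

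Trans contacts gave 2 calls among 421 bins (0.475%, against 0.112% of the genome and none in chr20:6000001-21000000, where 120 of 1398 bins had an unadjusted p under 0.05). At that unadjusted p the region had 61 bins (14.5%, against 9.03% of the genome), with 50 lower in Lenti-AS and 11 higher. The neighbouring stretch had 28 higher and 92 lower, and the genome 11515 and 11745. The median log2 difference of the region's bins was -0.089. The bin chr20:1790001-1800000 rose in Lenti-AS by 0.56 on the log2 scale, with 10.2 and 12.2 CPM of all trans contacts with Lenti-GFP and 15.9 and 17.5 with Lenti-AS (adjusted p = 0.0327, edgeR). The bin chr20:4710001-4720000 fell by 0.62, from 11.9 and 12.6 to 8.11 and 7.88 (adjusted p = 0.0339, edgeR). Neither group overlapped the other in these bins. The next by p in each direction did not pass, among them chr20:3450001-3460000 with -0.56 (adjusted p = 0.0576, edgeR) and chr20:1660001-1670000 with 0.45 (adjusted p = 0.264, edgeR). The count depended on which library was left out, as it did over the genome. Neither of these 2 bins passed without Lenti-GFP library 1, without Lenti-AS library 1 or without Lenti-AS library 2. With 1 library left out the difference was 0.45 to 0.70 at chr20:1790001-1800000 and -0.67 to -0.58 at chr20:4710001-4720000. DESeq2 called none of the region's bins and 49 of the genome's.

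Of 294 tested pairs of 100 kb bins at most 1.9 Mb from each other none passed by edgeR, against 0.328% of the genome, and none by DESeq2. At an unadjusted p under 0.05 edgeR gave 23 (7.82%, against 8.85% of the genome), of which 19 were lower in Lenti-AS (6.46% of the pairs tested, against 4.69% of the genome). The neighbouring stretch had 145 of 1383, of which 137 were lower. This direction rested on the scaling. With offsets that held the contacts of both bins, 22 pairs of the region had such a p, 18 higher and 4 lower (1.36% of those tested). The neighbouring stretch had 121, of which 101 were higher. The genome had 22712 of 311256, with 10685 higher and 12027 lower (3.86%). The median log2 difference of the region's pairs was -0.09 at matched distance and 0.05 with these offsets. The lowest p belonged to chr20:2300001-2400000 with chr20:2400001-2500000, with 493 and 550 contacts against 354 and 252 in the shallower Lenti-AS libraries and a log2 difference of -0.27 at matched distance (adjusted p = 0.10, edgeR). It was -0.50 without Lenti-AS library 1 (adjusted p = 0.00711, edgeR), the 1 pair that passed without that library, and -0.085 without Lenti-AS library 2. Next by p among the lower pairs was chr20:1000001-1100000 with chr20:1300001-1400000, with 21 and 31 contacts against 8 and 7 (-1.25, adjusted p = 0.159, edgeR). The pair chr20:4600001-4700000 with chr20:5400001-5500000 had 208 and 221 against 117 and 117, a log2 difference of -0.35 that did not pass (adjusted p = 0.241, edgeR). The lowest p in the other direction belonged to chr20:3600001-3700000 with chr20:5300001-5400000, with 8, 8, 17 and 9 contacts (1.22, adjusted p = 0.308, edgeR), and the difference was 0.73 without Lenti-AS library 1. Among 462 loops none passed, against 0.00843% of the genome (edgeR, with 17 or 3.68% at an unadjusted p under 0.05, against 3.55% of the genome, and DESeq2 called none). The loops of lowest p were chr20:4680001-4690000 with chr20:5410001-5420000, lower in Lenti-AS with 19 and 25 against 2 and 7 contacts (-1.73), and chr20:4820001-4830000 with chr20:5150001-5160000, with 39 and 44 against 41 and 47 (0.62), both with an adjusted p of 0.950 (edgeR). The first was -1.07 without Lenti-AS library 1 and -2.90 without Lenti-AS library 2.

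Insulation differed at none of 328 bins, against 0.00166% of the genome (limma with Benjamini-Hochberg adjustment, with 18 or 5.49% at an unadjusted p under 0.05, against 5.75% of the genome). Without Lenti-AS library 1, 1 bin passed. The deepest edge, chr20:5790001-5800000, had scores of -4.74 and -5.10 for Lenti-GFP and -5.20 and -5.52 for Lenti-AS (adjusted p = 0.848, limma). The bin with the lowest p, chr20:5400001-5410000, had -1.89 and -1.73 against -1.43 and -1.57 (adjusted p = 0.848, limma). Among bins lower in Lenti-AS the lowest p was at chr20:3150001-3160000, with 0.040 and 0.029 against -0.14 and -0.15 (adjusted p = 0.848, limma). The eigenvector differed at none of 44 bins, as at none of the genome (0%), and no bin of the region had an unadjusted p under 0.05, against 11.3% of the genome (limma). The bin with the lowest p was chr20:4400001-4500000, with -0.81 and -0.84 for Lenti-GFP and -0.75 and -0.57 for Lenti-AS (adjusted p = 0.497, limma).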

How the data were processed

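Members, gene lists and tests were chosen with earlier results of these data known. The authors deposited 1 raw matrix per library, which gives for pairs of 10 kb bins the count of contacts, and 1 matrix per group of ICE-balanced signal at 100 kb, for which the authors had merged both libraries. The submitters' processing notes name HiC-Pro and rn6, with no version. The methods give no build for the Hi-C alignment. The bin tables end chromosome 1 at 282763074, and rn6 was assumed. How reads with several possible placements were filtered is not given in the sources used here, and such filters can lower counts in duplicated sequence. The libraries held 70488877 to 110770015 contacts.

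Counts were tested with edgeR 4.0.16 (quasi-likelihood test) and, as an alternative, DESeq2 1.42.0, and scores with limma 3.58.1, each adjusted by Benjamini-Hochberg over all features of the genome. Pairs entered with a mean of at least 10 contacts. Insulation and eigenvectors (100 kb) were computed from raw counts balanced here over 50 iterations, without bins under 0.25 of the median. Insulation needed 0.25 of the pairs in its 200 kb window. The study's loop and domain callers were replaced by a negative binomial regression (200000 sampled pairs per chromosome, 0.025 trimmed) and by insulation. In each test, the 3 features with the largest change per direction among those that passed are named. Where fewer than 3 passed, those with the lowest p were chosen, and not all of them are given. As descriptions the 5 edges of largest prominence, the 5 loops of highest observed over expected count and all runs of at least 3 bins with few contacts are named. Scripts were tested on simulated data. Gene names came from a GRCr8 table. Intervals cover counting error only.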

Additional observations from a re-analysis of the deposited data

How the results depend on the processing

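Of 400 alternative values (392 planned and 8 chosen after seeing the data), 98 of those for counts and comparisons of the whole region had the same direction and side of the threshold or, for counts and values without a test, moved by less than 1.5 times or 1 SD, 14 moved by more and 8 changed direction. Of those for single named bins, pairs or loops, 241 had the same direction and side of the threshold, 29 no longer passed it, 6 newly passed it and 4 changed sign. The excess of trans contacts over chr20:6000001-21000000 did not change its direction under the alternatives run for it. The mean excess of boundaries per scored Mb (2.11) ranged from 1.58 at a prominence of 0.4 to 3.56 with a 100 kb window, save for 0.181 with a 500 kb window, where it was -0.265 in Lenti-GFP library 1.

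With the expected count scaled by the cis contacts of both bins, the difference in observed over expected was 0.139 at 0.1 to 0.5 Mb and 0.102 at 0.6 to 1.9 Mb in place of -0.153 and -0.184, and 6 near pairs were under the limit in place of 15, all of them among the 15. Against single stretches, the difference turned at chr20:11000001-16000000 for 0.6 to 1.9 Mb (0.107), at chr20:6000001-11000000 for the SD of insulation (-0.103) and at chr20:16000001-21000000 for the mean eigenvector (-0.54, against 0.09 for the whole stretch). The share of positive 100 kb bins was 48.3%, and 43.8% in the deposited balanced matrices and 51.1% with 200 kb bins. The causes were not tested.

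The difference in boundaries between the groups was -1 at a prominence of 0.1, -0.5 at 0.4 and -0.5 to 3.5 with 1 library left out. Leaving out each library gave 0 to 1 called pairs, 1 to 22 cis bins, 0 to 3 trans bins and 0 to 1 insulation bins, and DESeq2 called 0 pairs, 0 cis bins and 0 trans bins. Over the genome, with all 4 libraries, edgeR called 1020 pairs, 15395 cis bins and 288 trans bins, and DESeq2 17, 77 and 49. The genome's counts of pairs, cis bins, trans bins and insulation bins also changed with the library left out. The sign changed for 4 single features, namely for the pair chr20:2300001-2400000 with chr20:2400001-2500000 with offsets that held the bins' contacts (0.0041), for insulation at chr20:5400001-5410000 with a 500 kb window (-0.029), and for the eigenvector at chr20:1900001-2000000 after quantile normalization (0.0037) and at chr20:4200001-4300000 without Lenti-AS library 1 (0.032, with a range of -0.19 to 0.032 over the libraries left out).

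Same-numbered libraries did not deviate together (r = 0.00496 over 311256 pairs of 100 kb bins, which are not independent). Counting noise lowers such an r too, so it cannot tell whether the numbers pair the samples. With the number as a replicate block, 1 pair (chr20:2300001-2400000 with chr20:2400001-2500000, adjusted p = 0.0491, edgeR), 26 of 425 cis bins and 3 of 421 trans bins passed, and 0 loops, insulation bins or eigenvector bins. Over the genome 1497 of 311256 pairs, 22149 of 257633 cis bins and 346 of 257576 trans bins passed, each more than without the block. Of the 131 bins with few contacts, 56 were tested for cis contacts and none passed, and 75 had too few contacts to be tested.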
